A study of Mus musculus and Rattus norvegicus with 30 samples.

Results

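The collagen genes of the dorsal root ganglion (DRG) were examined in mouse and rat. Members were all genes whose symbol consists of Col, a number, a and a number, and nothing else, so Col4a3bp was left out. The rule found 44 genes among 54315 features in mouse and 43 genes among 39281 features in rat, where Col6a3 was not matched. All 44 mouse genes had counts, and 43 of them passed the filter on low counts. Col9a1 did not pass, with at most 9 counts in a library. In rat 12 of the 43 genes were listed at 0 in every library and the other 31 were tested.

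RNA was sequenced from L3 and L4 DRG of adult BALB/c and B10.D2 mice of both sexes, 28 days after spared nerve injury (SNI) or sham surgery, with 1 animal per library. SNI cuts the common peroneal and sural nerves and spares the tibial nerve, so the ganglion holds injured and intact neurons side by side. There were 6 sham and 4 SNI libraries of BALB/c, and 5 of each surgery of B10.D2. Male Wistar rats gave 4 libraries of L5 DRG taken 21 days after L5 spinal nerve transection (SNT) and 4 after sham surgery, each pooled from 3 animals. In all sham animals the nerve was exposed and left undamaged.

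Collagens are extracellular proteins built on a triple helix of alpha chains, each chain from a gene of its own. Fibrillar collagens (types I, II, III, V, XI, XXIV and XXVII) form the banded fibrils of connective tissue, and type V chains sit inside type I fibrils and set their width. Type IV chains form the mesh of basement membranes, the sheets that wrap Schwann cells, satellite glia and vessels. Type VI forms beaded filaments near cells, fibril-associated collagens (FACIT) coat fibrils, multiplexins (types XV and XVIII) lie at basement membranes, and transmembrane collagens are carried on the cell surface. Around peripheral nerve and ganglion, collagens are made chiefly by fibroblasts, Schwann cells and vascular cells, and matrix is known to be remodelled after nerve damage.

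Library totals were 29989963 to 41881331 counts in mouse and 11954612 to 17887909 counts in rat. Libraries of 1 group never held identical counts. Of 7 sensory neuron markers none was at 0 in mouse, and markers of injured neurons (Atf3, Sprr1a, Gal, Npy, Gap43, Sox11) were called higher after SNI, 6 of 6 in each strain. In rat, 3 of the 6 injury markers were tested and all 3 were called higher. Skeletal muscle markers summed to 9.31 to 1324 CPM (counts scaled to library size) in BALB/c sham and 21.6 to 522 CPM in BALB/c SNI, against 8.46 to 42.6 CPM over all B10.D2 libraries. In rat, of 10715 genes that carry the symbol of a well expressed mouse gene, 4017 (37.5%) were at 0, as were 27.9% of the collagen genes. They included Col1a1, Col4a1, Col4a2, Col6a1, Col6a2 and Col18a1, so a rat value of 0 says nothing about expression. On the first principal component, rat sham 4 and rat SNT 1 fell between the groups (-9.24 and 1.12, against -59.3 to -45.7 in the other sham and 39.7 to 62.4 in the other SNT libraries), and the leading rat values are also given without them.

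The sequences below are windows from 250 bases before to 50 bases after the start of a gene, from RefSeq on GRCm38.p6. They stand for the genes on which the strain and injury results turn, and 35 of the 44 mouse genes had a window. They are reference sequence and not that of BALB/c or B10.D2. Col4a1 and Col4a2, the main chains of type IV collagen, are transcribed away from each other on chromosome 8, and their annotated ends overlap by 22 bases. The Col4a2 window is shown on its plus strand (chr8:11312555-11312854), with the 78 bases it shares with the Col4a1 window in capitals.
Col4a2: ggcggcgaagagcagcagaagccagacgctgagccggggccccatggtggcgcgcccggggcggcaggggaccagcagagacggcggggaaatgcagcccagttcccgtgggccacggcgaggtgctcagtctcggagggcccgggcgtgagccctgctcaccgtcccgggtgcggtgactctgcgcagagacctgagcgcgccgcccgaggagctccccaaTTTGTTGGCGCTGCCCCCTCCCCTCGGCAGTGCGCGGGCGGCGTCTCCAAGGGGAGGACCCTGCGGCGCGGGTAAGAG
The other windows have their matches to the letters searched in capitals, on either strand. Searched were the TATA box (TATAAA), the CCAAT box, the Sp1 motif (GGGCGG) and the AP-1 motif (TGANTCA, N being any base). Col4a6 (chrX:141474027-141474326) and Col6a6 (chr9:105828036-105828335), both on the minus strand, are shown because they had the largest strain differences.
Col4a6: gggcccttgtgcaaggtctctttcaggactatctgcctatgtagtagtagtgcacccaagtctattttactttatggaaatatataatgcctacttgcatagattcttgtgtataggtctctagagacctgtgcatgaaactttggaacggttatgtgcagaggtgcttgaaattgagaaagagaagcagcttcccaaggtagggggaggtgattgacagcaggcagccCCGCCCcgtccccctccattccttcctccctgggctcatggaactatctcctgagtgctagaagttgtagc
Col6a6: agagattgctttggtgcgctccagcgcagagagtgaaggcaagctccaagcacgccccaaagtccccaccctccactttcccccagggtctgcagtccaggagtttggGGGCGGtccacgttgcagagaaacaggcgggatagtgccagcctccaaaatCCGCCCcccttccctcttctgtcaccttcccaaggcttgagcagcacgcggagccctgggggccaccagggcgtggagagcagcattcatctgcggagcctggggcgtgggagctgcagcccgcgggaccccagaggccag
Col5a3 (chr9:20815018-20815317, minus strand) and Col27a1 (chr4:63215162-63215461, plus strand) are shown because they had the smallest p-values after SNI.
Col5a3: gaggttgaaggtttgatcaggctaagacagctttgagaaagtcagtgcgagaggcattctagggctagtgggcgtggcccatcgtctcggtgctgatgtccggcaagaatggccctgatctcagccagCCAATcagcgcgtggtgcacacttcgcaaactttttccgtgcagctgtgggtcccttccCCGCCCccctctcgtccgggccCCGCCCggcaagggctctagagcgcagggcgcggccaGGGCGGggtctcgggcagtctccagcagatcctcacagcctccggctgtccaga
Col27a1: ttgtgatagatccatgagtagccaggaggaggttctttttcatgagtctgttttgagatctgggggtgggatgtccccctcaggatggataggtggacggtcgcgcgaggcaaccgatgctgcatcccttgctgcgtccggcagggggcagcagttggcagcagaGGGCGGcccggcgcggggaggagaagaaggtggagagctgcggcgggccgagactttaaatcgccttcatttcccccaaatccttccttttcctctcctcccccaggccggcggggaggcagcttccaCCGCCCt
GGGCGG was found in each of the 5 windows, 3 times in Col4a2 and Col5a3, 2 times in Col6a6 and Col27a1 and 1 time in Col4a6. Over the 38 windows of collagen genes it was found in 60.5%, against 35.7% of all 32851 windows. CCAAT was found in 34.2% of collagen windows and 37.4% of all windows, TATAAA in 13.2% and 13.6%, and TGANTCA in 2.63% and 7.81%. A match describes letters only and does not show binding.

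Levels were compared between genes as CPM per kilobase of exon, with GENCODE M21 exon lengths, in the 11 sham mouse libraries. Col3a1 was highest at 44.8 ± 8.26 CPM per kb (SD, n = 11), followed by Col1a2 at 31.7 ± 4.75. Col4a1 followed at 26.4 ± 3.54, Col28a1 at 23.0 ± 2.47, Col1a1 at 20.2 ± 5.25 and Col6a1 at 19.4 ± 4.57. The gaps from Col3a1 to Col1a2 and from Col1a2 to Col4a1 were larger than the SD of either gene, whereas from Col4a1 down to Col6a1 neighbours lay within the larger SD of the pair. Col3a1, Col1a2 and Col1a1 encode the chains of the common type III and type I fibrils. Col28a1 encodes a collagen known from peripheral nerve, where it lies around Schwann cells and satellite glia.

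The leading member of each remaining class was Col12a1 among FACIT (17.4 ± 4.45 CPM per kb), Col15a1 among multiplexins (10.1 ± 1.03), Col8a1 among short-chain network collagens (6.67 ± 2.20) and Col23a1 among transmembrane collagens (6.39 ± 1.66). The classes were spread widely: within type IV, Col4a1 and Col4a2 (17.1 ± 3.07) stood far above Col4a5 (1.05 ± 0.356), Col4a3 (0.361 ± 0.107), Col4a4 (0.341 ± 0.0774) and Col4a6 (0.0370 ± 0.0372). Col4a3, Col4a4 and Col4a5 are the chains of the specialised basement membrane known from the kidney glomerulus. Col17a1 (0.0370 ± 0.0169) and Col9a1 (0.0316 ± 0.0107) were the other genes under 0.1 CPM per kb. Type II, the main cartilage collagen, was low at 0.217 ± 0.0475 CPM per kb of Col2a1.

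**Figure D1:**
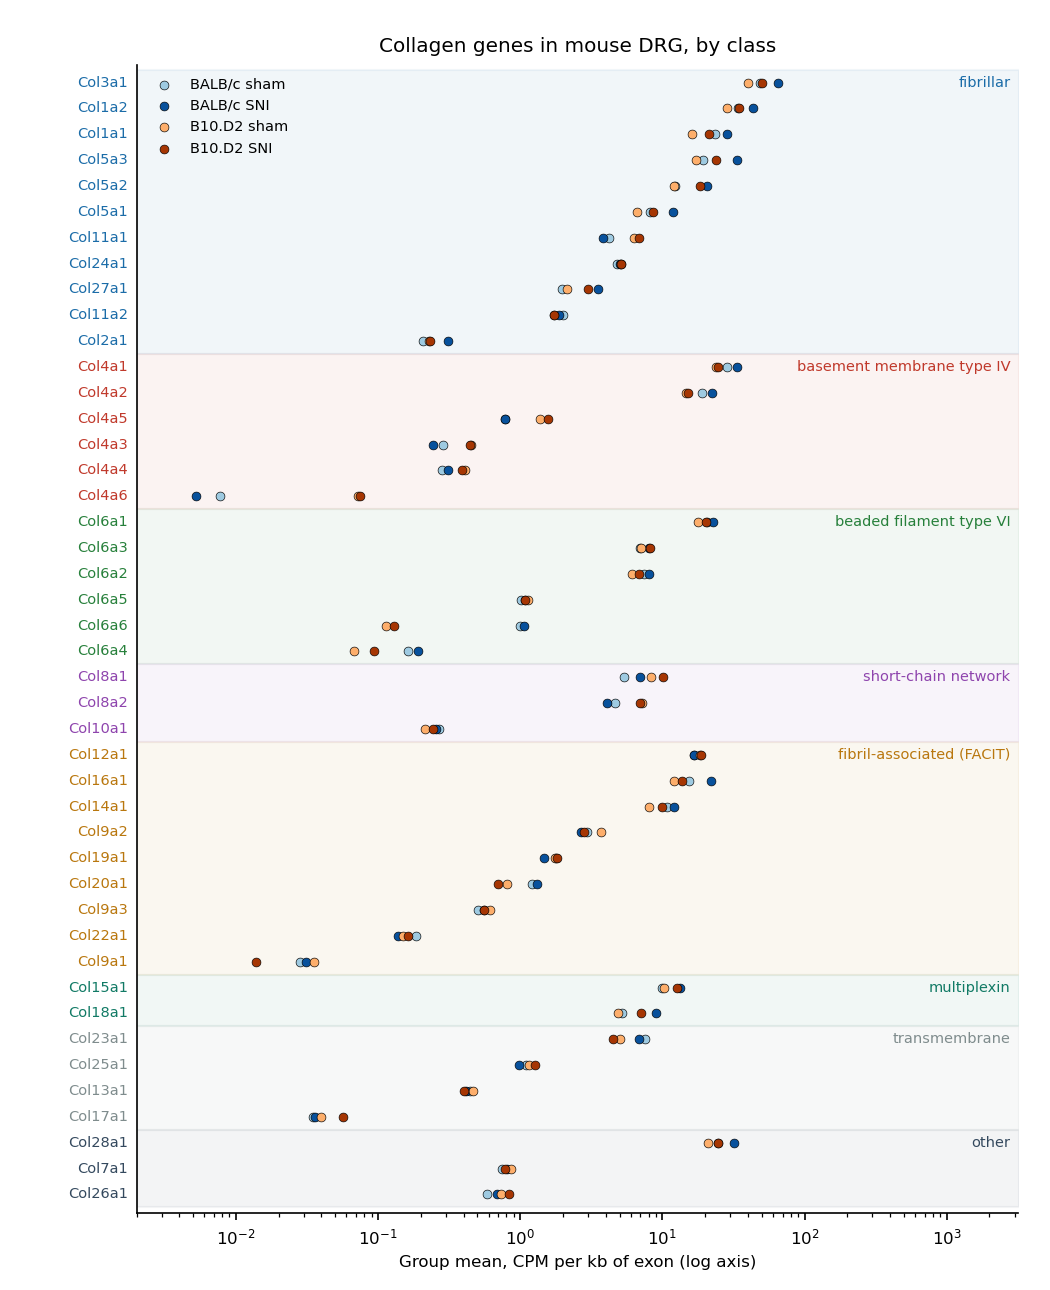
Mean level of each of the 44 mouse collagen genes (CPM per kb of exon, log axis) in the 4 mouse groups, ordered by class and by level in sham; each point is a group mean. Col3a1 and Col1a2 lie furthest right, and Col4a6 and Col6a6 show the widest gaps between the BALB/c (blue) and B10.D2 (orange and brown) points.

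Collagen genes together took 0.292% ± 0.0440 of the counts in BALB/c sham (SD, n = 6) and 0.377% ± 0.0779 in BALB/c SNI (SD, n = 4). The libraries ranged from 0.244% to 0.369% in sham and from 0.279% to 0.468% after SNI, and the groups overlapped. In B10.D2 the share was 0.260% ± 0.00906 in sham (SD, n = 5) and 0.314% ± 0.0512 after SNI (SD, n = 5), with 1 SNI library at 0.237%, under all 5 sham libraries. In rat the share was 0.643% ± 0.139 in sham and 1.20% ± 0.305 after SNT (SD, n = 4 each), with sham libraries at 0.482% to 0.814% and SNT libraries at 0.873% to 1.57%. The rat groups did not overlap, and the nearest pair was sham 4 at 0.814% and SNT 1 at 0.873%. The rat share leaves out the genes at 0 and is not comparable with the mouse share. In every library the 3 most counted collagen genes held 33.8% to 43.5% of collagen counts in mouse and 61.7% to 69.8% in rat. Col3a1 led in all rat libraries. In bulk tissue fewer cells of a type and less RNA per cell cannot be told apart.

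**Figure D2:**
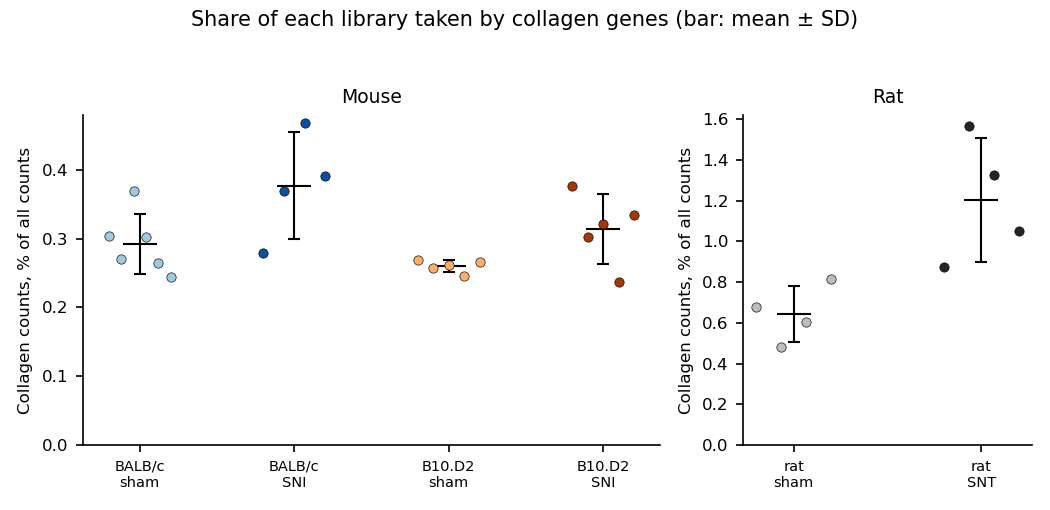
Share of all counts taken by collagen genes (%) in each library, with mouse groups on the left and rat groups on the right; bars are mean ± SD. Mouse sham and SNI libraries overlap, and the 4 rat SNT libraries (0.873% to 1.57%) all lie above the 4 sham libraries (0.482% to 0.814%).

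The comparison of B10.D2 with BALB/c in sham mice asked how the strains differ without nerve injury. Of 43 collagen genes tested, 7 were called higher and 9 lower in B10.D2 with edgeR's quasi-likelihood test (adjusted p under 0.05 over all features). Of all 24685 features 21.6% were called in either direction, 11.5% higher and 10% lower. The median log2 fold change was 0.0092 over the collagen genes and -0.0063 over all features. The higher genes were Col4a6, Col4a5, Col11a1, Col4a4, Col4a3, Col8a2 and Col8a1, in order of p. The lower genes were Col6a6, Col23a1, Col20a1, Col16a1, Col14a1, Col28a1, Col1a1, Col6a4 and Col4a2.

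Col6a6, an alternative chain of type VI, had the smallest p-value. In BALB/c sham its lowest, median and highest values were 7.92, 9.34 and 10.5 CPM, whereas the B10.D2 sham libraries held 1.02, 1.03, 0.734, 0.798 and 1.67 CPM. The groups were far apart, at 9.16 ± 1.06 (SD, n = 6) against 1.05 ± 0.369 CPM (SD, n = 5). On the log2 scale B10.D2 was at -3.15 ± 0.19 (SE) relative to BALB/c (edgeR adjusted p = 3.19e-11). Col6a4, nearby on chromosome 9, was lower as well (-1.15 ± 0.35, edgeR adjusted p = 0.021). Col6a5, which lies between them, was not called (0.14 ± 0.23), nor were the common type VI chains Col6a1, Col6a2 and Col6a3 (-0.16, -0.21 and 0.07). Col6a4 was called no longer without B10.D2 sham 77 or without BALB/c sham 55.

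Type IV chains split by gene. Col4a5 had 4.04, 5.23 and 6.83 CPM (lowest, median, highest) in BALB/c sham and 9.62, 7.78, 9.81, 7.85 and 11.2 CPM in B10.D2 sham. All B10.D2 sham libraries were above all BALB/c sham libraries, and the log2 fold change was 0.82 ± 0.14 (edgeR adjusted p = 0.000197). Col4a6, beside Col4a5 on chromosome X with 1309 bases between the starts, had 0 to 5 counts in each BALB/c sham library and 12 to 35 in each B10.D2 sham library. Its 106 counts in B10.D2 and 14 in BALB/c gave a ratio of 9.003 per total count (exact 95% interval 5.14 to 17.0, counting error only). No BALB/c library held 10 counts, so Col4a6 passed the filter on low counts only through its B10.D2 libraries. With at least 10 counts required in every library, neither Col4a6 nor Col6a4 was tested. Col4a3 (0.64 ± 0.16) and Col4a4 (0.50 ± 0.12), which start 72 bases apart on chromosome 1, were both higher in B10.D2. Col4a2 fell by 0.36 on the log2 scale (SE 0.11) in B10.D2 and Col4a1 (-0.25 ± 0.10, edgeR adjusted p above the threshold) was not called. The Col4a2 call was lost without B10.D2 sham 67, 77 or 88 and without BALB/c sham 55 or 56.

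Col23a1, a transmembrane collagen, had 31.5, 44.4 and 51.8 CPM (lowest, median, highest) in BALB/c sham. In B10.D2 sham it had 32.5, 28.6, 27.7, 25.2 and 29.4 CPM, and the groups overlapped at 1 library. Its log2 fold change was -0.61 ± 0.10 (edgeR adjusted p = 5.06e-05). Col11a1, a minor fibrillar chain also known from cartilage, was 45.4, 55.03 and 57.01 CPM in BALB/c sham. The B10.D2 sham libraries held 65.2, 65.5, 90.1, 88.7 and 94.5 CPM, all of them higher, with a log2 fold change of 0.61 ± 0.12 (edgeR adjusted p = 0.00065). The 3 FACIT genes called were lower in B10.D2: Col20a1 (-0.59 ± 0.12), Col14a1 (-0.41 ± 0.10) and Col16a1 (-0.37 ± 0.09). Both type VIII genes, known from vessels and cornea, were higher: Col8a1 by 0.75 ± 0.22 and Col8a2 by 0.70 ± 0.20. Both calls were lost with no sex term and in female mice alone, and kept in male mice alone. Other calls were also lost within 1 sex. Female mice alone lost Col4a3, Col4a4, Col4a5, Col28a1 and Col6a4 as well. Male mice alone lost Col11a1, Col14a1, Col16a1, Col20a1, Col1a1, Col4a2, Col4a3 and Col6a4. The Col8a1 call was also lost without B10.D2 sham 88. Col1a1 (-0.52 ± 0.15) was lower and Col1a2 (-0.24 ± 0.12), which encodes its partner chain, was not called. Col11a1 in the fibrillar class went against the direction of Col1a1.

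Markers of other cells differed between the strains in sham. Endothelial and mural markers were lower in B10.D2 for 3 of 6 (Kdr, Pdgfrb, Pecam1), with summed levels of 330 to 426 CPM in BALB/c and 328 to 375 CPM in B10.D2. Macrophage markers were higher for 3 of 5 (Adgre1, Aif1, Cx3cr1), at 33.9 to 84.3 and 69.3 to 76.6 CPM. Fibroblast markers were higher for 2 of 6 (Dcn, Lum), at 527 to 828 and 842 to 914 CPM. Cartilage and bone markers were higher for 3 of the 5 tested (Cnmd, Ibsp, Acan), at 11.5 to 16.1 and 21.6 to 24.2 CPM, and none of these 4 lists had a gene at 0. Skeletal muscle markers were lower for 3 of 5 (Ckm, Myh4, Acta1), and of 4 satellite glia markers Kcnj10 was lower (768 to 878 and 750 to 820 CPM for that list). Of 7 sensory neuron markers 2 were higher in B10.D2 (6275 to 7001 CPM in BALB/c and 6602 to 7406 CPM in B10.D2). The part of these lists in the collagen differences was not tested.

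After SNI, 5 collagen genes were called higher and 11 lower in B10.D2 than in BALB/c, against 20.9% of all features called, 10.9% higher and 9.99% lower. The higher genes were Col4a6, Col11a1, Col4a5, Col4a3 and Col8a2. The lower genes were Col6a6, Col16a1, Col20a1, Col23a1, Col28a1, Col5a3, Col4a2, Col4a1, Col5a1, Col6a4 and Col1a1. Of the 16 genes called in sham, 13 were called here with the same sign, and the matching share over all features was not counted. The comparisons use different libraries but share 1 fit. Col6a6 was 10.6, 8.17, 7.88 and 12.2 CPM in BALB/c SNI and 0.810, 1.61, 1.24, 0.803 and 1.46 CPM in B10.D2 SNI. The groups were as far apart as in sham, with a log2 fold change of -2.98 ± 0.19 (edgeR adjusted p = 1.72e-10). Col4a6 had 113 counts in B10.D2 SNI and 6 in BALB/c SNI, a ratio of 14.2 per total count (exact 95% interval 6.33 to 39.5). Here too it entered the test only through its B10.D2 counts.

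Col16a1, a FACIT that coats small fibrils, was 118, 142, 147 and 191 CPM in BALB/c SNI and 99.3, 79.0, 89.3, 91.99 and 108 CPM in B10.D2 SNI. No B10.D2 library reached the BALB/c range, and the log2 fold change was -0.67 ± 0.10 (edgeR adjusted p = 2.35e-05). Col20a1 was 5.48, 7.35, 6.74 and 7.54 CPM in BALB/c SNI and 4.21, 3.39, 3.93, 2.92 and 3.61 CPM in B10.D2 SNI (-0.91 ± 0.13, edgeR adjusted p = 2.82e-05). Col11a1 was 33.3, 43.5, 60.4 and 56.7 CPM in BALB/c SNI and 79.7, 98.01, 85.3, 91.5 and 83.7 CPM in B10.D2 SNI. The groups did not overlap for Col20a1 or for Col11a1 (0.84 ± 0.14, edgeR adjusted p = 7.82e-05). Both main type IV chains were lower in B10.D2 here, Col4a1 by -0.45 ± 0.10 and Col4a2 by -0.57 ± 0.12, while Col4a5 (1.0 ± 0.16) and Col4a3 (0.87 ± 0.18) were higher. Type V chains Col5a3 (-0.49 ± 0.09) and Col5a1 (-0.47 ± 0.13) were lower in B10.D2.

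Some of these calls rested on single libraries. Col5a1 was not called without B10.D2 SNI 89 or BALB/c SNI 70, and Col8a2 was not without B10.D2 SNI 90, BALB/c SNI 49 or BALB/c SNI 64. With 1 library left out at a time, Col6a4 lost its call in 7 of 20 fits (B10.D2 SNI 69, 76, 78 or 89, BALB/c SNI 49, 65 or 70), and Col1a1 in 14 of 20. Endothelial and mural markers were lower in B10.D2 for 3 of 6 (338 to 443 CPM in BALB/c, 352 to 472 CPM in B10.D2), macrophage markers higher for 2 of 5 (66.96 to 107 and 79.4 to 129 CPM) and fibroblast markers higher for 2 of 6 (678 to 998 and 827 to 1238 CPM). Satellite glia markers were lower for 2 of 4 (Kcnj10 and Cdh19, 864 to 986 and 747 to 886 CPM), and markers of injured sensory neurons for 2 of 6 (Gal and Sox11, 521 to 672 and 243 to 436 CPM). Cartilage and bone markers were higher for 2 of the 5 tested (Cnmd and Ibsp, 10.9 to 15.1 and 19.97 to 25.1 CPM). Of 7 sensory neuron markers 1 was higher in B10.D2 (6185 to 6888 CPM in BALB/c and 6137 to 7347 CPM in B10.D2). No gene of these lists was at 0, and their part was not tested.

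**Figure D3:**
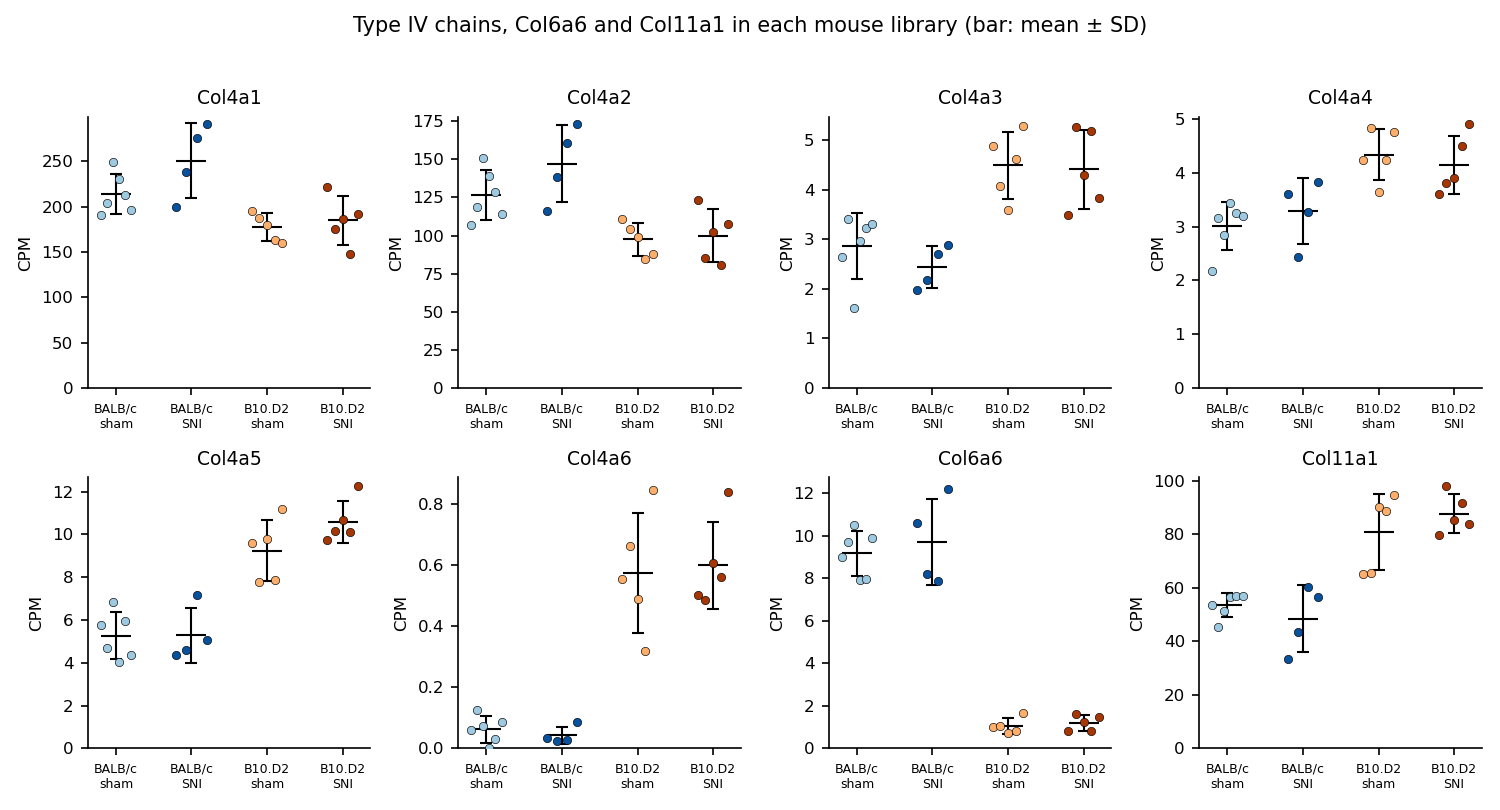
CPM in each mouse library for the 6 type IV chains, Col6a6 and Col11a1, one point per library; bars are mean ± SD and each axis starts at 0. Col6a6 lies near 1 CPM in all B10.D2 libraries and between 7.88 and 12.2 CPM in all BALB/c libraries, and Col4a5 and Col4a6 are higher in B10.D2 in both surgeries.

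The comparison of SNI with sham asked which genes change 28 days after partial nerve injury. In BALB/c, 8 of 43 collagen genes were called and all 8 rose, against 9.69% of all features called, 4.82% higher and 4.87% lower. In order of p they were Col5a3, Col27a1, Col5a2, Col16a1, Col28a1, Col18a1, Col5a1 and Col15a1. By class they were 4 of 11 fibrillar genes, 2 of 2 multiplexins, 1 of 8 FACIT genes tested and 1 of the 3 others. None of the 6 type IV, 6 type VI, 3 short-chain or 4 transmembrane genes was called. The median log2 fold change was 0.40 over fibrillar genes and 0.12 over all collagen genes, against 0.0033 over all features.

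Col5a3 encodes a type V chain known from Schwann cells. It had 123, 132 and 142 CPM (lowest, median, highest) in BALB/c sham and 201, 243, 218 and 255 CPM in BALB/c SNI, so the groups did not overlap. The rise was 1.74 times, or 0.80 ± 0.09 on the log2 scale (edgeR adjusted p = 5.17e-06). Col27a1, a fibrillar collagen of cartilage and other tissues, had 23.3, 25.8 and 27.9 CPM in sham and 37.4, 47.1, 45.9 and 53.0 CPM after SNI. Every SNI library was above every sham library (0.84 ± 0.10, edgeR adjusted p = 1.85e-05). Col5a2 had 95.2, 116.6 and 144 CPM in sham and 149, 193, 253 and 201 CPM after SNI (0.75 ± 0.11, edgeR adjusted p = 0.000168). Col16a1 had 99.7, 103 and 112 CPM in sham and 118, 142, 147 and 191 CPM after SNI (0.51 ± 0.09, edgeR adjusted p = 0.00089). The groups did not overlap for either gene.

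Col18a1, whose C-terminal fragment is endostatin, rose from 36.7 ± 4.07 to 63.6 ± 11.8 CPM (0.79 ± 0.16, edgeR adjusted p = 0.00237). Its fellow multiplexin Col15a1 rose from 63.4 ± 5.52 to 84.7 ± 12.4 CPM (0.42 ± 0.11). Col28a1 rose by 0.36 ± 0.07 and Col5a1 by 0.54 ± 0.13. The Col5a1 call was lost without BALB/c SNI 70, and that of Col15a1 without BALB/c SNI 64 or 70. The most abundant fibrillar genes had positive values that did not pass the test: Col3a1 0.40 ± 0.17, Col1a2 0.33 ± 0.13 and Col1a1 0.27 ± 0.15. Col11a1 (-0.14 ± 0.13) and Col11a2 (-0.10 ± 0.14) were the fibrillar genes below 0. Col4a1 (0.23 ± 0.10) and Col4a2 (0.22 ± 0.12) were not called.

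In the same comparison 3 of 5 macrophage markers (Cx3cr1, Cd68, Csf1r) were higher, with summed levels of 33.9 to 84.3 CPM in sham and 66.96 to 107 CPM after SNI. Of 6 fibroblast markers 1 (Lum) was higher, at 527 to 828 and 678 to 998 CPM. Of 4 satellite glia markers Cdh19 was higher (768 to 878 and 864 to 986 CPM), and of 6 endothelial and mural markers Cldn5 was higher (330 to 426 and 338 to 443 CPM). Of 5 cartilage and bone markers tested Acan was higher and Ibsp lower (11.5 to 16.1 and 10.9 to 15.1 CPM). Of 7 sensory neuron markers 1 was lower (6275 to 7001 CPM in sham and 6185 to 6888 CPM after SNI). No gene of these lists was at 0, and their part in the collagen changes was not tested.

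In B10.D2, 3 of 43 collagen genes were called and all 3 rose, against 4.58% of all features, 2.10% higher and 2.48% lower. They were Col5a3, Col27a1 and Col5a2, all fibrillar and all called in BALB/c too, against the sham libraries of their own strain. Col5a3 had 129, 122, 118, 107 and 115 CPM in B10.D2 sham and 172, 117.3, 170, 168 and 188 CPM after SNI. B10.D2 SNI 76 stayed in the sham range and the other SNI libraries were above it (0.48 ± 0.09, edgeR adjusted p = 0.0029). Col27a1 had 30.0, 29.9, 32.0, 21.6 and 24.6 CPM in sham and 44.7, 34.0, 39.5, 35.2 and 42.3 CPM after SNI. Col5a2 had 125, 115, 113, 108 and 120 CPM in sham and 220, 166, 177, 140 and 176 CPM after SNI. Neither gene overlapped between the groups (Col27a1 0.51 ± 0.11, edgeR adjusted p = 0.00614, and Col5a2 0.55 ± 0.12, edgeR adjusted p = 0.00701).

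Col18a1 (0.56 ± 0.16), Col15a1 (0.31 ± 0.11), Col5a1 (0.34 ± 0.13) and Col28a1 (0.23 ± 0.07) were positive and not called in B10.D2. Both Col18a1 and Col28a1 were called with DESeq2, with no filter on low counts and with no sex term. They were also called with at least 10 counts in every library, and Col28a1 in a fit of B10.D2 alone. The count rose to 5 without B10.D2 SNI 89 (Col15a1 and Col18a1 added), without BALB/c SNI 49 and without BALB/c sham 55 (Col18a1 and Col28a1 added in each). The median over fibrillar genes was 0.25, against 0.0075 over all features. The Lum value was 0.52 ± 0.12 (called), with fibroblast markers at 842 to 914 CPM in sham and 827 to 1238 CPM after SNI, and 0 of 5 macrophage markers were called (69.3 to 76.6 and 79.4 to 129 CPM). Of 4 satellite glia markers Cdh19 was higher (750 to 820 and 747 to 886 CPM), and of 5 cartilage and bone markers tested Ibsp was lower (21.6 to 24.2 and 19.97 to 25.1 CPM). Of 7 sensory neuron markers 1 was lower (6602 to 7406 CPM in sham and 6137 to 7347 CPM after SNI). The part of these lists was not tested.

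Whether the change after SNI differed between strains was tested by the interaction term. No collagen gene was called, against 0.0243% of all features (6), and DESeq2 called none either. At an unadjusted p under 0.05 there were 3 collagen genes: Col5a3 (-0.32 ± 0.13), Col16a1 (-0.30 ± 0.13) and Col27a1 (-0.33 ± 0.15), each with the smaller rise in B10.D2. All 3 were among the genes called in BALB/c, whose libraries the interaction also uses. The share of all features at that threshold was not counted, so these 3 show no strain difference. Over the 43 genes the interaction ranged from -0.63 to 0.76 on the log2 scale. A gene called in BALB/c alone was therefore not shown to differ between the strains.

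**Figure D4:**
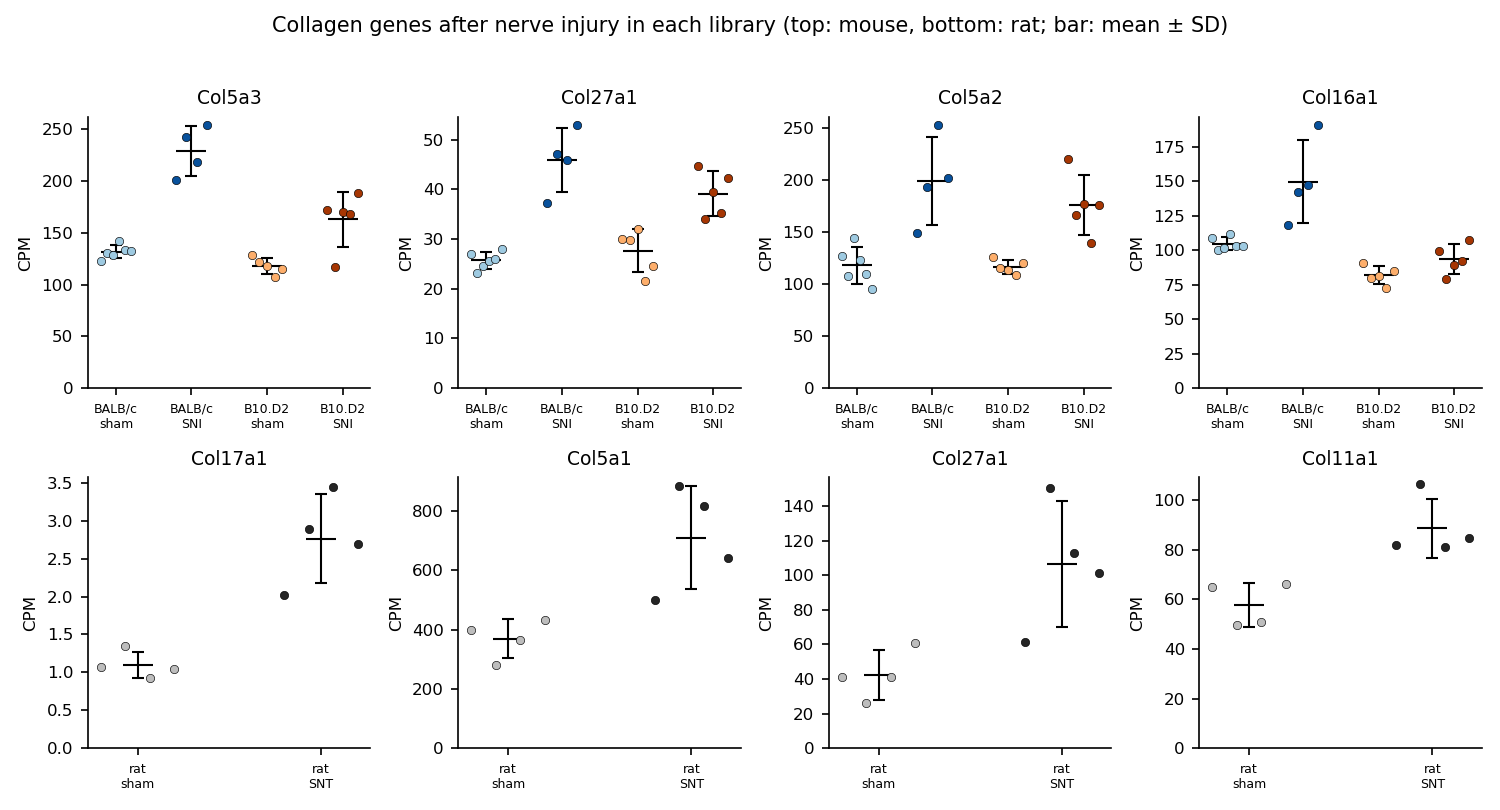
CPM in each library for the 4 genes with the smallest p-values after SNI in BALB/c (top, 4 mouse groups) and after SNT in rat (bottom, sham and SNT), one point per library; bars are mean ± SD and each axis starts at 0. Col5a3 in BALB/c runs from 123 to 142 CPM in sham and from 201 to 255 CPM after SNI, while B10.D2 SNI 76 stays at 117.3 CPM.

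Females were compared with males over all 20 mouse libraries. No collagen gene was called with edgeR, against 0.243% of all features (60), while 13 had an unadjusted p under 0.05 and DESeq2 called 1 (Col6a4). Values ranged from -0.68 to 0.92 on the log2 scale, female over male. The smallest p-values belonged to Col6a2 (0.43 ± 0.11), Col8a1 (0.63 ± 0.17) and Col6a4 (0.92 ± 0.25), each positive and so higher in females. Within type VI, 5 of 6 genes had an unadjusted p under 0.05, and Col6a5 (-0.39 ± 0.17) and Col6a6 (-0.27 ± 0.13) were below 0. The 0.243% counts adjusted p-values. The share of all features at an unadjusted p under 0.05 was not counted, so the counts of 13 and 5 show no sex effect. Col4a5 and Col4a6 are X-linked and were at 0.05 ± 0.11 and -0.68 ± 0.23.

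In rat the ganglion at the level of the cut nerve was compared with sham 21 days after SNT. Of the 31 genes tested 15 were called higher and 2 lower, against 27.4% of all 13690 features, 12.3% higher and 15.1% lower. The median log2 fold change was 0.62 over these genes and 0.0027 over all features. In order of p the genes that rose were Col17a1, Col5a1, Col27a1, Col11a1, Col8a2, Col15a1, Col3a1, Col16a1, Col28a1, Col14a1, Col9a3, Col5a2, Col6a6, Col5a3 and Col2a1. Col25a1 and Col19a1 fell. By class, 7 of 9 fibrillar genes tested rose, as did 3 of 9 FACIT genes, with 1 lower. None of the 4 type IV genes tested was called (-0.28 to 0.62). Leaving out sham library 4 and SNT library 1 together gave 20 higher and 2 lower, with all 17 genes among them and Col7a1, Col12a1, Col20a1, Col22a1 and Col4a5 added. These 2 libraries were picked for lying between the groups. More calls and larger changes without them follow from that choice, and are no further support.

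Col17a1, a hemidesmosome collagen of epithelia, was low: 1.08, 1.34, 0.926 and 1.04 CPM in sham and 2.02, 2.89, 3.45 and 2.69 CPM after SNT. The groups did not overlap (1.32 ± 0.24, edgeR adjusted p = 0.0108, and 1.43 ± 0.26 without the 2 libraries). Col5a1, the main type V chain, had 399, 281, 366 and 433 CPM in sham and 500, 884, 817 and 644 CPM after SNT (0.94 ± 0.20, edgeR adjusted p = 0.0131, and 1.18 ± 0.18 without them). Col27a1 had 41.0, 26.1, 41.0 and 61.1 CPM in sham and 61.4, 150, 113 and 101 CPM after SNT (1.33 ± 0.29, edgeR adjusted p = 0.0141, and 1.78 ± 0.21 without them). SNT library 1 lay just above sham library 4, and the other SNT libraries were well above sham. Col11a1 had 65.1, 49.7, 50.8 and 66.1 CPM in sham and 82.1, 106, 81.3 and 84.8 CPM after SNT (0.61 ± 0.14, edgeR adjusted p = 0.0142, and 0.74 ± 0.15 without them).

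Col3a1, the most counted rat collagen gene, rose from 3177, 2098, 2397 and 3820 CPM to 4514, 8081, 5952 and 4819 CPM (1.02 ± 0.25, edgeR adjusted p = 0.0178, and 1.32 ± 0.25 without them). The SNT libraries were all higher than the sham libraries, and without sham library 3 the gene was not called. Col25a1, a transmembrane collagen known from neurons, went against the other genes, with 11.5, 12.9, 13.4 and 8.47 CPM in sham and 6.89, 1.52, 2.89 and 3.67 CPM after SNT. It fell by 1.63 on the log2 scale (SE 0.38, edgeR adjusted p = 0.0151, and by 2.22, SE 0.28, without them) without overlap. Col19a1, a FACIT that neurons also express, fell by 0.75 (SE 0.20, and by 0.93, SE 0.20, without them), from 14.3 ± 1.78 to 8.52 ± 2.29 CPM. It was not called without sham library 1, 2 or 3 or SNT library 2 or 3. Sensory neuron markers that could be tested were lower for 2 of 3, with 3 genes of the list at 0. The 3 tested had a median log2 fold change of -1.09. The list summed to 4602 to 6763 CPM in sham and 3692 to 6259 CPM after SNT, and its part was not tested. Col3a1 and Col25a1 were chosen for library values after their results were seen.

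Several rat values need their libraries beside them. Col6a4 had 42.9 CPM in SNT library 3 and 0.436 to 0.721 CPM in the other SNT libraries, under all sham libraries (1.11 to 2.56 CPM), and was not called (2.52 ± 1.33). Without SNT library 3 its value turned to -1.69 and it was called lower (edgeR adjusted p = 0.034). Col1a2 had 0.784 to 3.73 CPM in sham and 2.75 to 12.4 CPM after SNT, which overlapped (1.20 ± 0.56, not called). The mouse gene had 310 to 647 CPM, and whether rat Col1a2 was counted in full was not tested. The number of collagen genes called fell to 6 without sham library 3, 8 without sham library 1 or SNT library 2 and 9 without sham library 2 or SNT library 3. Col17a1, Col5a1, Col27a1, Col11a1 and Col25a1 were called in every fit run. In the same comparison 1 of 3 fibroblast markers tested (Lum) rose, at 1096 to 2355 CPM in sham and 2215 to 3047 CPM after SNT with 3 of 6 genes at 0. Of 2 macrophage markers tested 1 (Cx3cr1) rose (41.4 to 102 and 102 to 126 CPM, 3 of 5 at 0). Endothelial and satellite glia markers were all at 0. Of 2 cartilage and bone markers tested none was called, with 3 of 8 genes at 0. That list summed to 1.99 to 2.68 CPM in sham and 2.53 to 22.6 CPM after SNT. Of 2 skeletal muscle markers tested none was called (17.0 to 81.6 and 19.0 to 130 CPM). The part of these lists was not tested.

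**Figure D5:**
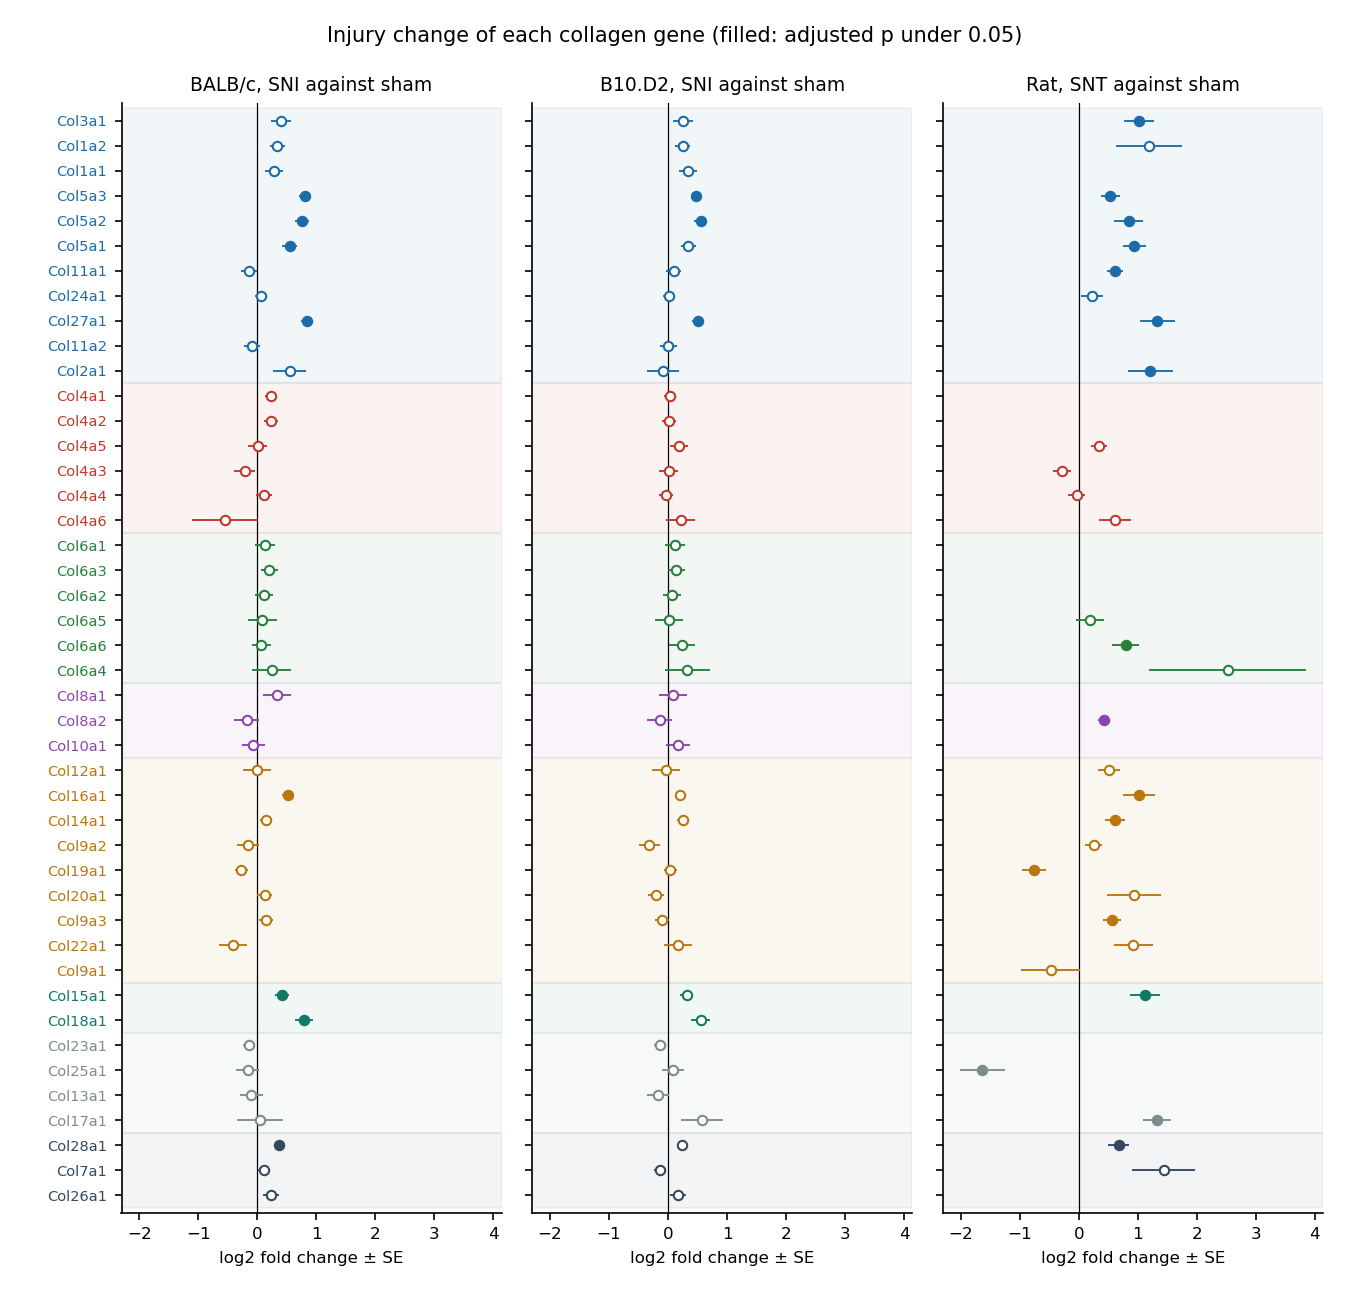
log2 fold change ± SE of each collagen gene for SNI in BALB/c, SNI in B10.D2 and SNT in rat, on a common axis and ordered by class; filled points have an adjusted p under 0.05, and a missing rat point is a gene that was not tested. The filled fibrillar points (top block) all lie right of 0 in each panel, and Col25a1 (-1.63) and Col19a1 (-0.75) are the filled points left of 0.

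Mouse and rat share no library, and the models, times and tissue levels differ, so their values are set side by side. The RNA differs too, ribodepleted in mouse and polyadenylated in rat. Mouse libraries are single animals of both sexes, and rat libraries are pools of 3 males. Of the 8 genes called after SNI in BALB/c, 7 could be tested in rat and all 7 were called higher there, which is 87.5% of the BALB/c list and 41.2% of the rat list. They were Col5a1, Col5a2, Col5a3, Col15a1, Col16a1, Col27a1 and Col28a1. In rat 15 of 31 collagen genes tested were called higher, against 12.3% of all features. Without rat sham library 1, 2 or 3 or SNT library 2 or 3, only Col5a1, Col15a1 and Col27a1 of the 7 were called higher, and without SNT library 4 all but Col5a3 were. Col18a1 was at 0 in rat. Col3a1 was 0.40 ± 0.17 for BALB/c, 0.25 ± 0.17 for B10.D2 and 1.02 ± 0.25 in rat. Col25a1 was -0.16 ± 0.19, 0.08 ± 0.19 and -1.63 ± 0.38, and Col11a1 was -0.14 ± 0.13, 0.10 ± 0.12 and 0.61 ± 0.14. No test of the difference between species was made.

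Genes that make, bind or signal around collagens were taken as lists. Their counts stand against shares of all features called of 9.69% for SNI in BALB/c, 4.58% for SNI in B10.D2, 21.6% and 20.9% between strains in sham and after SNI, and 27.4% in rat. Collagen processing genes (chain-modifying enzymes, chaperones, propeptide proteases and cross-linkers) were called after SNI for 5 of 32 genes in the BALB/c mice (3 higher, 2 lower) and for 4 of 32 in the B10.D2 mice (2 higher, 2 lower). Loxl2, a lysyl oxidase that cross-links fibrils, rose by 1.61 ± 0.17 and 1.31 ± 0.17. Bmp1, a propeptide protease, rose by 0.57 ± 0.09 and 0.40 ± 0.09, and Tll1, a protease of the same family, fell by 0.68 (SE 0.12) and 0.63 (SE 0.12). In rat 5 of 13 tested rose, among them Crtap (0.69 ± 0.16), P3h1 (0.73 ± 0.19) and Serpinh1 (0.69 ± 0.19), the collagen chaperone, and 19 of the list were at 0. Between strains Colgalt1, which adds sugars to collagen, was higher in B10.D2 by 0.43 ± 0.04 in sham and 0.43 ± 0.04 after SNI. The list held 3 higher and 1 lower of 32 in sham, and 2 higher and 1 lower after SNI, which is 12.5% and 9.38% of the list and under the share of all features.

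Of 12 collagen receptors 5 rose after SNI in BALB/c and 1 in B10.D2. Itga2 rose by 0.65 ± 0.09 in BALB/c, Itgb1, the shared beta chain, by 0.24 ± 0.04 there and 0.17 ± 0.04 in B10.D2, and Itga1 by 0.30 ± 0.07 in BALB/c. Between strains Itga1 was lower in B10.D2 by -0.39 ± 0.07 in sham and -0.46 ± 0.07 after SNI, with 1 higher and 2 lower of 12 in sham and 1 higher and 4 lower after SNI. In rat 2 of 6 tested rose, Itga10 (1.64 ± 0.35) and Itga1 (0.60 ± 0.16), and Itga11 fell by 1.34 (SE 0.29). Of the laminins and their basement membrane partners 7 of 15 rose in the BALB/c mice and 3 of 15 in the B10.D2 mice, with Lamb3 (1.55 ± 0.21 and 1.22 ± 0.21) and Lama5 (0.67 ± 0.11 and 0.63 ± 0.11) in both. In rat 5 of 7 tested rose, Lama5 by 1.51 ± 0.21, Lamb1 by 0.94 ± 0.21 and Lamb2 by 0.58 ± 0.13. B10.D2 had 1 of 15 higher and 4 lower than BALB/c in sham, and 0 higher and 6 lower after SNI. Lama3 was the higher one (0.55 ± 0.07), and Lama1 (-0.54 ± 0.11) and Lamc3 (-0.35 ± 0.08) were among the lower. Median log2 changes of this list were 0.25 for BALB/c, 0.22 for B10.D2 and 0.66 for rat.

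Of 16 fibril-binding matrix genes 4 rose after SNI in BALB/c and 3 in B10.D2. Tnc, the tenascin of wound and regenerating nerve, rose by 2.07 ± 0.26 and 2.48 ± 0.27, and Postn, which encodes periostin, by 1.04 ± 0.12 and 0.88 ± 0.12. Lum, a small proteoglycan that is also on the fibroblast list, rose by 0.45 ± 0.12 and 0.52 ± 0.12. In rat 5 of 10 tested rose, among them Thbs1 (0.87 ± 0.20), Lum (0.79 ± 0.21) and Fbn1 (0.80 ± 0.23). Between strains Postn was lower in B10.D2 (-0.71 ± 0.12 in sham and -0.87 ± 0.13 after SNI) and Dcn higher (0.42 ± 0.11 and 0.49 ± 0.12). The strain calls were 3 higher and 1 lower in sham, and 2 higher and 1 lower after SNI. Of 11 TGF-beta pathway genes matched in mouse, 3 rose in BALB/c (Ltbp1 0.60 ± 0.12, Tgfbr3 0.23 ± 0.05, Tgfbr2 0.26 ± 0.07) and 1 in B10.D2 (Ltbp1 0.60 ± 0.12). In rat 4 of 8 tested rose, including Smad3 (0.97 ± 0.23), Tgfb1 (0.95 ± 0.23) and Tgfbr2 (0.87 ± 0.22). Ltbp2 was lower in B10.D2 (-0.71 ± 0.16 in sham and -0.59 ± 0.18 after SNI).

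The study assembled LncRNAs (long noncoding RNAs) from reads outside annotated genes, and 10 of them lay within or within 5000 bases of a mouse collagen gene. LncRNA242 lay in an intron of Col5a1 on the same strand, at chr2:27982098-27984041 (mm10). It had 1.43 ± 0.110 CPM in BALB/c sham and 2.49 ± 0.391 CPM after SNI (log2 fold change 0.79, edgeR adjusted p = 0.0153). LncRNA5795, 1092 bases beyond the end of Col5a3 on the same strand (chr9:20754865-20768958), rose from 0.776 ± 0.175 to 1.51 ± 0.260 CPM in BALB/c (0.94, edgeR adjusted p = 0.00323). In B10.D2 their changes were 0.57 and 0.57, not called. Both moved in the direction of the collagen gene beside them, and whether their reads come from unannotated parts of that gene was not tested. Of those with a strain difference, LncRNA2146 within Col23a1 on its strand was lower in B10.D2 sham (-0.92, edgeR adjusted p = 0.00138). LncRNA3053 within Col8a1 on its strand was higher (0.69, edgeR adjusted p = 0.0106), each as its host gene. LncRNA1289, 1715 bases from Col28a1 on the same strand, was higher in B10.D2 sham (0.89, edgeR adjusted p = 0.000181), opposite to Col28a1 (-0.24).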

How the data were processed

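Libraries were strand-specific and paired-end, from ribodepleted RNA in mouse and polyadenylated RNA in rat. The authors aligned reads with STAR to mm10 or rn6 and counted read pairs per feature with HTSeq. The deposited tables hold these raw counts, and only the gene symbol was taken from the deposited result tables, whose log2 fold changes and p-values were not used. B10.D2 sham 59 and BALB/c SNI 66 were not analysed here. Groups came from the labels.

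Counts of each feature were fitted in R 4.3.3 by edgeR 4.0.16, with its quasi-likelihood F test (TMM normalization, filterByExpr), with sex, strain, surgery and their interaction in mouse and surgery alone in rat. P-values were two-sided and adjusted after Benjamini and Hochberg across every feature tested, and a gene is called at an adjusted p under 0.05. SE is the absolute log2 fold change over the square root of F. CPM divides each count by the library total times its TMM factor. Rat libraries are pools of animals, and rat p-values measure the spread between pools. The models were tested on simulated data. DESeq2 1.42.0, another normalization and filter, leave-one-out fits and subsets were the alternatives, of which the fits without 2 rat libraries and within each sex were chosen after seeing the data. Exact intervals cover counting error only. The members, classes and lists were chosen with earlier results of these data known. The rule named every called member, gave library values for the 4 of at least 1 CPM with the smallest p in each comparison, and up to 3 called genes per partner list. The list of Schwann cell markers is not reported here.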

Additional observations from a re-analysis of the deposited data

Results flagged for a closer look

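Among 60 groups of libraries whose values were looked at, 4 held a library whose gap to the nearest other library took up most of the group's range (Dixon's criterion), and chance flags about 1 in 20 groups. Col6a4 was at 42.9 CPM in rat SNT library 3, where the other SNT libraries were under 1 CPM. Col5a3 was at 117.3 CPM in B10.D2 SNI 76, against 168 to 188 CPM in the other B10.D2 SNI libraries. Col11a1 was at 106 CPM in rat SNT library 2, against 81.3 to 84.8 CPM in the others. Col4a6 was at 0.0851 CPM in BALB/c SNI 70, which is 3 counts against 1 in each of the other BALB/c SNI libraries.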

How the results depend on the processing

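No collagen gene called here changed sign under any alternative. Counts of collagen genes called, against 8 for SNI in BALB/c, 3 for SNI in B10.D2, 16 for strain in sham, 16 for strain after SNI and 17 for SNT, moved as follows. In male mice alone they were 4, 1, 8 and 8 in mouse, and in female mice alone 5, 1, 10 and 12. For SNI in B10.D2 the count was 5 with DESeq2, with no filter on low counts and with no sex term. The count was also 5 with at least 10 counts in every library, and Col18a1 and Col28a1 were added each time. For sex it was 1 with DESeq2 and 3 with no filter (Col6a2, Col6a4, Col8a1), against 0. Leaving out each library in turn gave 6 to 9 for SNI in BALB/c, 3 to 5 for SNI in B10.D2, 14 to 17 for strain in sham, 13 to 18 for strain after SNI, 6 to 21 for SNT and 0 for the interaction and for sex. Median-ratio normalization changed none of the counts.

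Rat sham and SNT libraries share a number in their titles, whose meaning the labels do not give. Samples of the same number did not deviate together (correlations -0.238 to 0.0529, none best with its own number). With this number as a block 12 collagen genes were called in rat, against 17. Col3a1, Col5a2, Col5a3, Col15a1 and Col19a1 were not among them. In mouse no paired analysis was possible because the groups share no replicate number. Depth limited Col4a6, Col9a1 and Col17a1 in mouse, with at most 35, 9 and 17 counts in a library.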
